A study of Mus musculus with 16 samples.

Results

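The comparison described here is the interaction of Dmp1 loss and Fgf23 deletion in cultured mouse bone cells. It asks for each gene whether deleting Fgf23 changed its RNA level differently in Dmp1-null cells than in Dmp1-intact cells, and is the change from Dmp1KO to Dmp1KO/Fgf23cKO minus the change from WT to Fgf23cKO. A value of 0 on the log2 scale means that the 2 single changes multiply in the double mutant. All 16 libraries entered, 4 for each genotype, and 16430 of 45796 genes had enough counts to be tested. Each gene was also classed by the genotype whose mean departed from the other 3 group means.

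The cells were stromal cells from the bone marrow of C57BL/6J mice at 12 weeks of age. They were grown for 21 days in a medium that drives bone formation, with ascorbic acid at 50 µg/ml and beta-glycerophosphate at 10 mM. All 4 genotypes carried the floxed Fgf23 alleles. WT cells were Dmp1+/+ Fgf23fl/fl without Cre, Fgf23cKO cells were Dmp1+/+ Fgf23fl/fl with the Dmp1-cre transgene, Dmp1KO cells were Dmp1-/- Fgf23fl/fl without Cre, and Dmp1KO/Fgf23cKO cells were Dmp1-/- Fgf23fl/fl with Dmp1-cre. The Dmp1 deletion was present in every cell, whereas the Cre was driven by the Dmp1 promoter, which is active in mature osteoblasts and osteocytes, so other cells of the culture kept an intact floxed Fgf23. Cre-negative and Cre-positive cells differed in the transgene as well as in Fgf23, and the effects of the transgene and of the deletion cannot be told apart. Nothing in the labels ties each library to its own animal, and the study names fewer mice per genotype than libraries. What the p-values measure is therefore the spread from library to library, which may in part be technical.

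The product of Dmp1 is dentin matrix protein 1, which osteocytes secrete into bone and which takes part in mineralization. Fgf23 encodes the bone hormone that lowers blood phosphate by acting through an FGF receptor and the co-receptor Klotho in the kidney, and loss of Dmp1 is known to raise it. In a comparison of 4 genotypes a gene can change in either single mutant without a further change in the double mutant, or depart in 1 genotype alone. These patterns describe the 4 means and do not give a route of action. Both single changes are taken from the same WT libraries, so a shift of those libraries moves both.

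Library totals ran from 61.9 to 79.5 M expected counts. Fgf23 (chromosome 6, 127072902 to 127082296, GRCm38.p6) was at 0.63, 0.77, 0.78 and 1.08 CPM (counts per 1 M counts of a scaled library) in WT and at 6.19, 3.51, 1.63 and 3.42 CPM in Dmp1KO. It lay between 0.0128 and 0.0554 CPM in the 4 Fgf23cKO libraries and between 0.029 and 0.0996 CPM in the 4 double-mutant libraries, below all Cre-negative libraries. Dmp1 (chromosome 5, 104197575 to 104214102) kept 83.0 to 108.5 CPM in Dmp1KO and 41.2 to 95.9 CPM in the double mutant, against 329 to 784 CPM in WT, and gene counts do not show which exons these reads came from. The 4 double-mutant libraries fell into 2 pairs. On the first principal component (38.2% of the variance), libraries 1 and 2 stood at -30 and -36.8, near WT at -31 to -48 and Fgf23cKO at -17.9 to -28.8. Libraries 3 and 4 stood at 70.8 and 58.9, beyond the Dmp1KO libraries at 38.8 to 57.8. On the second component (10%), libraries 1 and 2 stood at -4.7 and -15.3, between WT at 23.2 to 33.6 and Fgf23cKO at -25.6 to -35.9. The labels name no batch for these pairs, and values with either pair left out are given for part of the genes and counts in which the pairs stood apart.

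The interaction was called for 1252 genes at an adjusted p under 0.05 in edgeR's quasi-likelihood test with Benjamini-Hochberg adjustment, 7.62% of the genes tested. It was lower than 0 for 775 genes (4.72%) and higher for 477 (2.9%), and 100 and 198 of these differed at least 2-fold. Of the called genes, 772 had a positive fitted change in both single mutants, with both changes called for 550, and all 772 were called lower, so the double mutant stood below the product of the 2 changes. Another 466 had a negative fitted change in both, with both called for 251, and all 466 were called higher. The remaining 14 had single changes of opposite sign, while among all genes tested 5326 had both changes up, 5840 both down and 5264 in opposite directions. The direction held for all 1252 genes when the interaction was taken as a difference of CPM in place of a ratio.

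Among the 772 genes with 2 positive changes, the fitted double-mutant level lay between the single mutants for 390, short of both but above WT for 346, below WT for 21, and beyond both for 15. Among the 466 with 2 negative changes it lay between for 123, short of both for 308, above WT for 32 and beyond both for 3. Over the 775 genes called lower, the median change from WT was 0.43 in Fgf23cKO, 0.59 in Dmp1KO and 0.39 in the double mutant on the log2 scale, against 1.02 for the median sum of the single changes. Over the 477 called higher it was -0.59, -0.64 and -0.37, against a sum of -1.25. The same libraries chose these genes, so the medians are a description. The plot of the sum of the single changes against the double mutant shows this shortfall gene by gene.

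**Figure D1:**
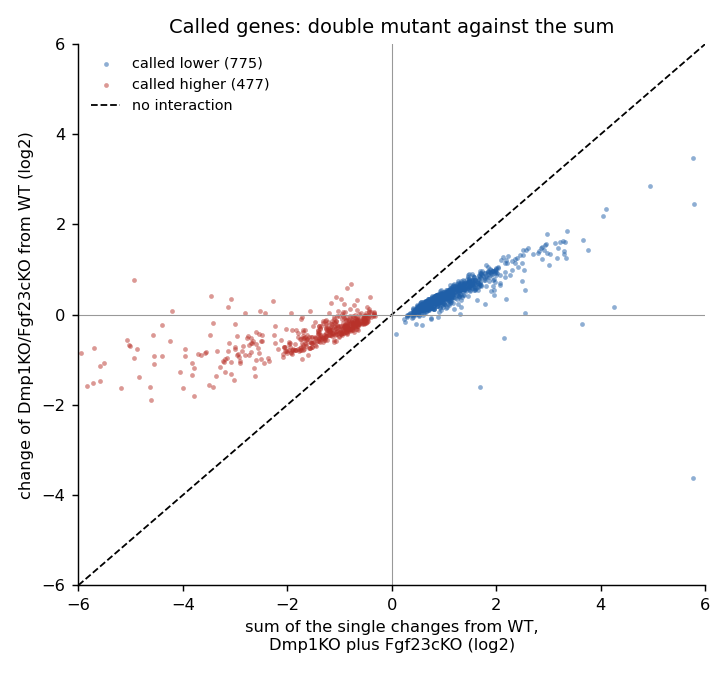
Each dot is one of the 1252 called genes. The horizontal axis gives the sum of the fitted log2 changes of Dmp1KO and Fgf23cKO from WT, the vertical axis the fitted log2 change of Dmp1KO/Fgf23cKO from WT, and the dashed line marks equality (no interaction). The 775 genes called lower lie below the line, nearly all at positive sums, and the 477 called higher lie above it, nearly all at negative sums. 17 genes lie outside the axes.

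The 4 differences that make up the interaction were called to unequal extents in the same fit. Dmp1KO against WT gave 2952 genes higher (18%) and 2597 lower (15.8%), and Fgf23cKO against WT gave 1097 higher (6.68%) and 776 lower (4.72%). The double mutant against Fgf23cKO gave 128 higher (0.779%) and 80 lower (0.487%), and against Dmp1KO 1 higher (0.00609%) and 2 lower (0.0122%). Of the 1252 genes, 1106 were called in Dmp1KO against WT, 926 in Fgf23cKO against WT, 66 in the double mutant against Fgf23cKO and 2 in the double mutant against Dmp1KO, and 21 in neither single mutant against WT. The comparisons share libraries and are not independent.

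The direction of all 1252 genes held without any 1 of the 16 libraries, a result made likely by choosing the genes on these libraries. The number of calls moved with single libraries. It was 785, 772, 779 and 591 without WT library 1, 2, 3 or 4, 807 and 606 without Fgf23cKO library 3 or 4, 655 and 713 without Dmp1KO library 3 or 4, and 729 without double-mutant library 1. Without double-mutant library 3 it rose to 1991. Leaving out both double-mutant libraries 3 and 4 gave 4506 calls, which held 1197 of the 1252, and leaving out libraries 1 and 2 gave 1048, which held 642.

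The WT mean departed most often. Of the called genes, 502 had WT lower than the other 3 genotypes and 187 had WT higher, together 689 of 1252. In 44 and 57 genes Fgf23cKO was the higher or lower group, in 43 and 63 Dmp1KO was, and in 1 and 3 the double mutant was. In 352 genes no single genotype departed. A genotype counted as departing where its gap to the nearest other mean was larger than the range of the other 3. Of all genes tested, 10.5% had WT lower and 40.1% of the called genes did, and for WT higher these shares were 9.66% and 14.9%. The other genotypes departed in a smaller share of called than of tested genes. For Fgf23cKO these were 8.07% and 12.9%, for Dmp1KO 8.47% and 17.1%, and for the double mutant 0.319% and 3.92%. The classes and the calls come from the same libraries, and no test was made of these differences. The median SD of log2 CPM within a genotype was 0.14 in WT, 0.189 in Fgf23cKO, 0.202 in Dmp1KO and 0.268 in the double mutant. The part of this unequal spread in the shares was not tested. With double-mutant libraries 1 and 2 left out the classes held 410 WT, 242 Fgf23cKO and 20 Dmp1KO genes, and with libraries 3 and 4 left out they held 662, 113 and 1998. With either pair the class in which WT departed was thus larger than that of any other genotype or second to Dmp1KO, while the count for Dmp1KO ranged from 20 to 1998.

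**Figure D2:**
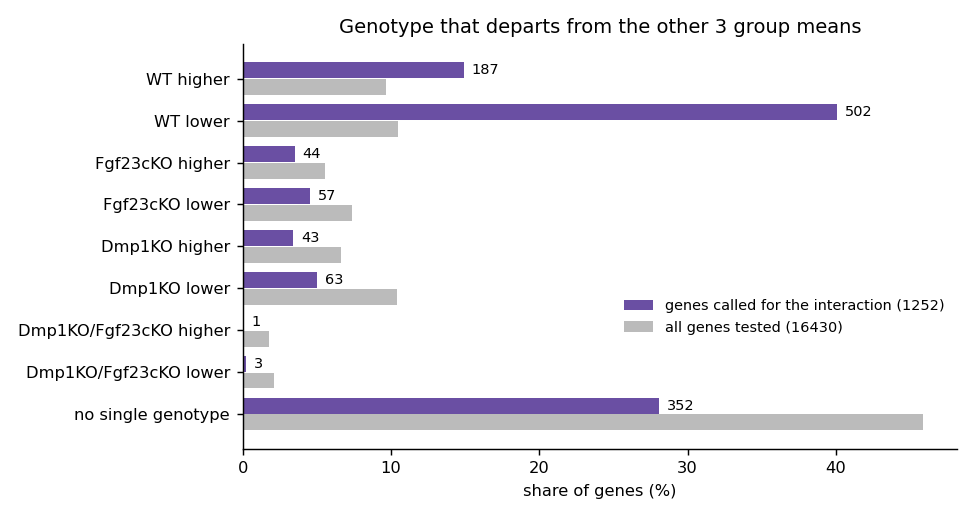
Share of genes by the genotype that departs from the other 3 group means, for the 1252 called genes (purple, with their number) and all 16430 tested genes (grey), in percent. WT lower holds 502 called genes, and the double mutant departs in 1 and 3.

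The first genes described are those lower in WT than in the other 3 genotypes. In 444 of the 502 all 4 WT libraries lay below the other 12, as in 40.8% of all tested genes with WT lower. Myc (chromosome 15, 61985341 to 61990361), a transcription factor that drives growth and ribosome production, was at 36.96, 33.3, 35.5 and 35.9 CPM in WT, at 67.5, 58.6, 58.6 and 66.5 CPM in Fgf23cKO and at 61.9, 77.6, 93.7 and 103 CPM in Dmp1KO. The double mutant held 53.2, 46.01, 58.7 and 66.1 CPM. All 4 WT libraries lay below the other 12, and the 4 double-mutant libraries did not rise above the single mutants. Adding the single changes gave 149 CPM for the double mutant against a fitted 55.99 CPM, a log2 interaction of -1.41 ± 0.19 (SE, adjusted p = 0.00167).

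Of 83 tested genes named Rpl or Rps, which encode proteins of the cytoplasmic ribosome, 53 were called lower (63.9%, against 4.72% of all genes), and none of the calls was higher. On the list of 25 ribosomal proteins chosen for this report, 18 were called lower, 15 had WT as the lower group (against 10.5% of all genes tested), all 25 had a negative interaction, and the median was -0.77, against 0.03 over all genes tested. Rps14, a protein of the small subunit, was at 182.8 to 202.6 CPM in WT, 287.2 to 334.7 CPM in Fgf23cKO, 309.2 to 398.5 CPM in Dmp1KO and 234.5 to 354.3 CPM in the double mutant. Its double-mutant libraries overlapped those of both single mutants and none reached WT, with a log2 interaction of -1.02 ± 0.16 (SE, adjusted p = 0.00349). Rps19, also of the small subunit, was at 143.9 to 160.6 CPM in WT against 181.5 to 255.7 CPM in the double mutant (log2 -0.74 ± 0.13, adjusted p = 0.00568). The list had 14 calls without double-mutant libraries 1 and 2 and 25 without libraries 3 and 4, and 11 without WT library 4, 11 without Fgf23cKO library 4 and 10 without Dmp1KO library 3. Over all genes, 1048 were called without double-mutant libraries 1 and 2 and 4506 without libraries 3 and 4.

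Factors of the nucleolus, where ribosomal RNA is made and processed, were counted by name. Of 40 genes named Nop, Nol, Noc, Utp, Rrp or Rrs, 20 were called lower (4.72% of all genes were), as were 22 of 77 mitochondrial ribosomal proteins, 15 of 53 translation initiation factors and 10 of 28 RNA polymerase subunits. These families were formed from gene symbols after the values were seen. Nop2, an RNA methyltransferase of the large subunit, was at 41.5, 42.7, 39.6 and 38.2 CPM in WT and at 49.6, 49.8, 51.3 and 53.7 CPM in the double mutant. The single mutants overlapped it or lay above, at 50.3 to 61.9 CPM in Fgf23cKO and 58.9 to 67.1 CPM in Dmp1KO. Gnl3, the nucleolar GTPase nucleostemin, was at 33.4 to 37.9 CPM in WT, 56.3 to 64.8 CPM in Fgf23cKO, 60.9 to 75.7 CPM in Dmp1KO and 46.6 to 67.3 CPM in the double mutant. Nolc1, a nucleolar phosphoprotein, was at 32.2 to 36.1 CPM in WT against 47.8 to 59.6 CPM in the double mutant.

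On the list of 24 respiratory chain genes, 10 had WT as the lower group and 7 were called lower, against 4.72% of all genes. Cox4i1 (chromosome 8, 120668225 to 120674209), a subunit of cytochrome c oxidase, was at 78.0, 78.4, 82.5 and 73.9 CPM in WT against 131.6, 125, 137.7 and 128.8 CPM in the double mutant. Fgf23cKO lay at 122.3 to 128.9 CPM and Dmp1KO at 127.1 to 153.4 CPM, so all 12 mutant libraries stood above WT within a narrow band. The log2 interaction was -0.79 ± 0.09 (SE, adjusted p = 0.00131). Cox5b, another subunit, was at 37.7 to 43.98 CPM in WT against 60.6 to 63.5 CPM in the double mutant (log2 -0.71 ± 0.14, adjusted p = 0.0085). Of the 24 genes on the list all were negative, with a median of -0.33. Without any 1 library the list had 3 (Fgf23cKO library 4) to 12 calls (Dmp1KO library 1). Of 46 complex I subunits 14 were called lower and of 39 proteasome subunits 14 were. Ndufb7, a complex I subunit, was at 5.8 to 6.65 CPM in WT, 12.8 to 21.7 CPM in Fgf23cKO, 19.4 to 25.3 CPM in Dmp1KO and 18.3 to 19.6 CPM in the double mutant.

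Larger shifts with WT lower were seen in other genes. Mt2, a metallothionein that binds zinc, was at 0.80 to 2.07 CPM in WT, 2.59 to 10.7 CPM in Fgf23cKO, 8.51 to 23.0 CPM in Dmp1KO and 3.99 to 10.8 CPM in the double mutant (log2 -3.34 ± 0.68, adjusted p = 0.0121). Zfp984 was at 2.11 to 3.06 CPM in WT against 10.8 to 22.1 CPM in the other 12 libraries (log2 -2.09 ± 0.27, adjusted p = 0.00139). The histone gene Hist4h4 was at 4.44 to 5.10 CPM in WT against 10.9 to 23.0 CPM elsewhere (log2 -1.99 ± 0.27, adjusted p = 0.00168). Rab6b, a small GTPase of vesicle transport, was at 0.91 to 1.86 CPM in WT against 3.17 to 21.0 CPM elsewhere, and its call was lost when any 1 of 10 libraries was left out (adjusted p up to 0.0767). Near-identical genes exist for Mt2, Hist4h4 and Zfp984, so their counts depend on how shared reads were assigned. Timp1, an inhibitor of matrix metalloproteinases chosen after its values were seen, was at 501 to 529 CPM in WT, 921 to 1270 CPM in Fgf23cKO, 891 to 1500 CPM in Dmp1KO and 852 to 1030 CPM in the double mutant.

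**Figure D3:**
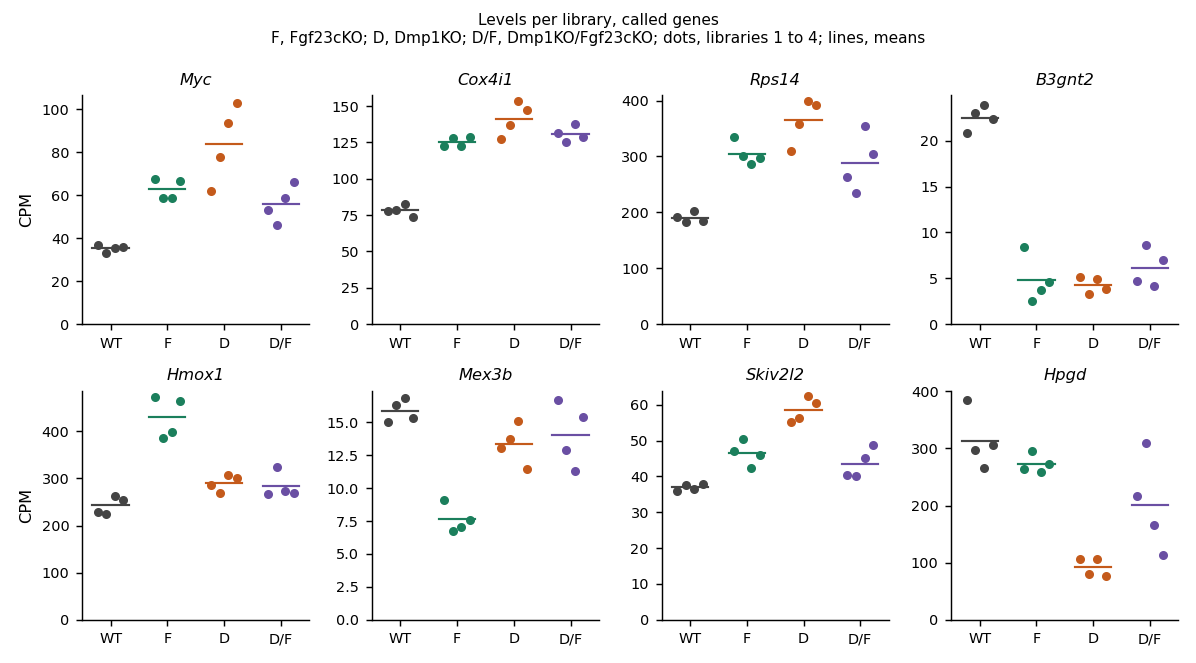
CPM per library (dots) and group mean (lines) for 8 called genes, with each axis from 0. Myc, Cox4i1 and Rps14 are lowest in WT and B3gnt2 is highest, Hmox1 and Mex3b depart in Fgf23cKO, and Skiv2l2 and Hpgd depart in Dmp1KO.

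The start regions of these genes were examined because so many moved together. RefSeq windows of 300 bases on GRCm38.p6 (250 before and 50 after each start) were held for 12780 of the tested genes by Entrez ID. In them 4 motifs were searched on both strands, all chosen after the classes were seen. The core of the ETS factor site, CCGGAAGT, which is common at housekeeping genes, was in 77 of 394 called WT-lower genes with a window (19.5%), 9.8% of those with WT lower and no call, and 8.09% of called WT-higher genes. It was in 17% of all genes called lower, 7.74% of all genes tested and 9.65% of those at 5 CPM or more. Counted per window and not per gene, it was in 3.89% of all 32851 windows. Without Rpl and Rps genes the share was 19.2%. The E-box CACGTG, the site bound by the MYC family, was in 13.5% against 11% of all genes tested, the ATF4-type motif TGATGCAA in 0.254% against 0.837%, and the YY1 core AAGATGGCG in 4.82% against 2.96%. Among tested genes at 5 CPM or more these 3 shares were 12.3%, 0.738% and 3.93%. A match is a description of the letters, and binding was not measured.

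Shown here are 30 bases around the ETS core for the 8 called WT-lower genes with the smallest adjusted p whose first match lies wholly before the start, so that its place and strand can be compared. Each is read 5′ to 3′ on the gene's strand, and capitals mark the core or its reverse complement ACTTCCGG.
Surf6 (chr2:26902878-26902907, minus strand): gcgcataagatACTTCCGGcggggtcacgc
Zpr1 (chr9:46273045-46273074, plus strand): cagtctaggaaCCGGAAGTctttgtcagag
Psmc1 (chr12:100110162-100110191, plus strand): ttggtggatgcACTTCCGGcggtggcgatt
Zc3h15 (chr2:83644443-83644472, plus strand): cgcgcagctccACTTCCGGgcgcctcgcct
Psmc2 (chr5:21785179-21785208, plus strand): gaccagtgagcACTTCCGGgatggggctcg
Bms1 (chr6:118419508-118419537, minus strand): acccagagcttACTTCCGGctttcccctga
Nhp2 (chr11:51619739-51619768, plus strand): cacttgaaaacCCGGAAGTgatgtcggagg
Rabgef1 (chr5:130171722-130171751, plus strand): ccagccagtccCCGGAAGTccgaagcgtca

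Surf6, Bms1 and Nhp2 of this set are nucleolar factors, and Psmc1 and Psmc2 are ATPases of the proteasome. Surf6 was at 16.8, 15.8, 16.7 and 17 CPM in WT, 23.4 to 26.4 CPM in Fgf23cKO, 26.8 to 29.5 CPM in Dmp1KO and 21.4, 24, 25.8 and 25.2 CPM in the double mutant (log2 -0.83 ± 0.10, adjusted p = 0.00131). Psmc1 was at 40.4 to 49.6 CPM in WT, 64.3 to 68 CPM in Fgf23cKO, 66 to 76.2 CPM in Dmp1KO and 59.9 to 62.4 CPM in the double mutant (log2 -0.70 ± 0.10, adjusted p = 0.00181). Nhp2, a protein of small nucleolar particles and telomerase, was at 13.6 to 17.1 CPM in WT against 22.3 to 26 CPM in the double mutant. In all 8 genes the 4 WT libraries lay below the other 12, as in 444 of the 502 called WT-lower genes from which they were picked.

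Transcript length and base composition moved with this class. The median transcript length was 1.8 kb for called WT-lower genes and 3.89 kb for called WT-higher genes, against 3 kb for all genes tested, and the median GC content was 52.2%, 46.4% and 50%. With genes cut into 5 bins by transcript length, the share called lower went from 9.68% in the shortest bin to 1.89% in the longest, and the share called higher from 1.26% to 4.84%. With an offset for length and GC content in each library, a setting chosen after these values were seen, 1175 genes were called, of which 839 were among the 1252. In that fit 498 called genes had WT lower, 323 of them among the 502, and 11 of the 25 ribosomal proteins and 4 of the 24 respiratory chain genes were called lower. The part of transcript length and GC content in the result beyond this fit was not tested.

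The next genes are those higher in WT than in the other 3 genotypes. In 131 of the 187 all 4 WT libraries lay above the other 12, as in 22.6% of all tested genes with WT higher. B3gnt2 (chromosome 11, 22834739 to 22860336), which extends sugar chains on glycoproteins, was at 20.8, 23.1, 23.9 and 22.4 CPM in WT, at 8.47, 2.51, 3.76 and 4.64 CPM in Fgf23cKO, at 5.11, 3.33, 4.91 and 3.80 CPM in Dmp1KO, and 4.71, 8.59, 4.12 and 6.95 CPM in the double mutant. All WT libraries were more than 2-fold above every other, and the 3 mutants overlapped, with a log2 interaction of 2.73 ± 0.43 (SE, adjusted p = 0.00377). Dcbld2, a transmembrane receptor, was at 167.5 to 322.6 CPM in WT against 51.8 to 114.3 CPM elsewhere (log2 1.82 ± 0.35, adjusted p = 0.00913). Bank1, a scaffold of B-cell receptor signalling, was at 12.6 to 14.5 CPM in WT against 1.64 to 8.17 CPM elsewhere (log2 1.999 ± 0.43, adjusted p = 0.0136). Its double-mutant libraries held 8.17, 5.69, 3.34 and 3.80 CPM. The interaction of Bank1 was 1.43 (adjusted p = 0.0414) without libraries 1 and 2, and 2.4 (adjusted p = 0.000728) without libraries 3 and 4. Sertad4 was at 16.2 to 27.3 CPM in WT against 3.87 to 14.5 CPM elsewhere (log2 1.85 ± 0.40, adjusted p = 0.0139), a call lost without double-mutant libraries 1 and 2 (adjusted p = 0.0551).

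Members of growth and stress signalling lists fell here as single genes rather than as lists. Nfatc2, a calcium-regulated transcription factor, was at 68.6 to 91.4 CPM in WT, 43.7 to 49.9 CPM in Fgf23cKO and 41.99 to 46.1 CPM in Dmp1KO, while the double mutant held 73.2, 70.9, 32.1 and 41.4 CPM. Its double-mutant libraries 1 and 2 thus lay within WT and libraries 3 and 4 below both single mutants, and its call (log2 1.08 ± 0.28, adjusted p = 0.032) was lost when any 1 of 10 libraries was left out (adjusted p up to 0.0724). Without libraries 1 and 2 its interaction was 0.51 (adjusted p = 0.0524), and without libraries 3 and 4 it was 1.49 (adjusted p = 7.08e-06). Pik3r3, a regulatory subunit of PI3-kinase, was at 58.9 to 76.7 CPM in WT against 36.3 to 61.4 CPM in the double mutant (log2 0.91 ± 0.23, adjusted p = 0.027), and was not called without WT library 1 or 3 or Fgf23cKO library 4 (adjusted p up to 0.057). These were the 2 called of 21 tested genes on the PI3K, AKT and NFAT list. On the AMPK list 2 of 20 were called. Of all genes tested, 7.62% were called, so neither count is read as a result about its list. Prkab2, a scaffold subunit of AMPK, was at 30.4 to 31.8 CPM in WT against 13.7 to 27.2 CPM elsewhere (log2 0.79 ± 0.23, adjusted p = 0.0494), and its call was lost when any 1 of 14 libraries was left out (adjusted p up to 0.0968). Sesn1, a stress-induced sestrin, was at 74.9 to 99.4 CPM in WT against 47.6 to 78.6 CPM elsewhere (log2 0.69 ± 0.17, adjusted p = 0.0263), and was not called without WT library 1, 3 or 4, Fgf23cKO library 3 or double-mutant library 1 (adjusted p up to 0.0594). Deptor, an inhibitor of mTOR that was chosen after its values were seen, was at 25.5 to 35.8 CPM in WT, 17.9 to 19.8 CPM in Fgf23cKO, 13.7 to 15.8 CPM in Dmp1KO and 24.6, 24.9, 13.7 and 18 CPM in the double mutant.

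In the Wnt list, 3 of 22 tested genes were called, all higher (2.9% of all genes were), of which Lgr5 and Fzd2 had WT higher and Rspo2 had Fgf23cKO lower. Lgr5, a receptor for R-spondins, was at 3.36, 2.24, 1.63 and 0.853 CPM in WT and at most 1.11 CPM in every other library (log2 4.53 ± 0.93, adjusted p = 0.0111). Fzd2, a Wnt receptor, was at 23.9 to 37.7 CPM in WT, 13.2 to 18.3 CPM in Fgf23cKO, 11.1 to 13.4 CPM in Dmp1KO and 24.7, 21.2, 10.9 and 11.6 CPM in the double mutant (log2 1.34 ± 0.33, adjusted p = 0.027). Its double-mutant libraries 1 and 2 reached the lower edge of WT and libraries 3 and 4 the level of Dmp1KO, and it was not called without WT library 2, Fgf23cKO library 4, Dmp1KO library 3 or double-mutant library 2 (adjusted p up to 0.0606). Without libraries 1 and 2 its interaction was 0.72 (adjusted p = 0.0659), against 1.76 (adjusted p = 0.000107) without libraries 3 and 4. Over all classes, zinc finger genes named Zfp had 25 of 372 called higher (6.72%, against 2.9% of all genes) and 6 called lower.

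Fgf23cKO was the departing genotype in 101 called genes, those whose change on Fgf23 deletion was not carried into the double-mutant mean. Hmox1 (chromosome 8, 75093618 to 75100593), the stress-induced enzyme that breaks down haem, was at 472.9, 386.5, 398 and 464.4 CPM in Fgf23cKO, 228.5, 224.4, 263 and 255.1 CPM in WT, 286.5, 268.1, 306.4 and 300.8 CPM in Dmp1KO, and 267.6, 323.8, 273.5 and 269.6 CPM in the double mutant. All Fgf23cKO libraries lay above the other 12, as the rule for naming genes of a class required. This held for 35 of the 44 called Fgf23cKO-higher genes and 17.3% of all tested ones. The log2 change on Fgf23 deletion was 0.83 in Dmp1-intact cells (adjusted p = 0.000208) and -0.03 in Dmp1-null cells (adjusted p = 0.879), with an interaction of -0.86 ± 0.13 (SE, adjusted p = 0.0028). Iqgap2, a scaffold of the cytoskeleton, was at 47.6 to 60.9 CPM in Fgf23cKO and 21.7 to 40.98 CPM elsewhere (log2 -1.08 ± 0.21, adjusted p = 0.00839). Tnip3, an inhibitor of NF-kB signalling, was at 7.99 to 16.9 CPM in Fgf23cKO and 3.299 to 7.495 CPM elsewhere (log2 -1.54 ± 0.33, adjusted p = 0.0141).

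Junb, Id2, Plscr1 and Saa3 also had Fgf23cKO as the highest group. Junb, a component of the AP-1 transcription factor, was at 105.2 to 138 CPM in Fgf23cKO, 75.5 to 86.8 CPM in WT, 84.9 to 105.6 CPM in Dmp1KO and 73.5 to 103.9 CPM in the double mutant (log2 -0.70 ± 0.15, adjusted p = 0.0141). Id2, a target of BMP signalling, was at 83.9 to 96.0 CPM in Fgf23cKO and 40.6 to 76.0 CPM elsewhere (log2 -0.78 ± 0.20, adjusted p = 0.0329), a call lost when any 1 of 8 libraries was left out (adjusted p up to 0.0654). Plscr1, an interferon-induced membrane protein, was at 10.9 to 12.5 CPM in Fgf23cKO and 4.93 to 8.38 CPM elsewhere (log2 -0.86 ± 0.21, adjusted p = 0.0234), and was not called without WT library 4 (adjusted p = 0.0507) or Fgf23cKO library 4 (adjusted p = 0.0524). Saa3, an acute-phase protein, was the 1 called gene of 20 on the chemokine and NF-kB list (7.62% of all genes were called), at 1.91 to 4.39 CPM in Fgf23cKO and 0.764 to 1.88 CPM elsewhere. That list had a median change of 1.01 in Fgf23cKO and -0.98 in Dmp1KO against WT on the log2 scale. Of its members 6 were called higher in Fgf23cKO (6.68% of all genes were) and 6 lower in Dmp1KO (15.8% of all genes were).

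Among genes lower in Fgf23cKO, Mex3b (chromosome 7, 82867333 to 82871576), an RNA-binding protein, was at 9.12, 6.74, 7.06 and 7.61 CPM in Fgf23cKO, 15.03 to 16.9 CPM in WT, 11.4 to 15.1 CPM in Dmp1KO and 11.3 to 16.7 CPM in the double mutant. It fell by 1.06 on the log2 scale in Dmp1-intact cells (adjusted p = 0.000365) and changed by 0.08 in Dmp1-null cells (adjusted p = 0.795), with an interaction of 1.14 ± 0.18 (SE, adjusted p = 0.00363). Rspo2, a secreted R-spondin that strengthens Wnt signals, was at 4.04 to 9.42 CPM in Fgf23cKO, 49.03, 13.5, 35.5 and 34.1 CPM in WT, 18.6 to 29.1 CPM in Dmp1KO and 9.43 to 21.7 CPM in the double mutant (log2 1.92 ± 0.51, adjusted p = 0.0355). Its lowest double-mutant library was level with the highest Fgf23cKO library, and its call was lost when any 1 of 10 libraries was left out (adjusted p up to 0.076). Kitl, the stem cell factor made by stromal cells, was at 7.24 to 9.49 CPM in Fgf23cKO and 10.4 to 18.8 CPM elsewhere (log2 0.85 ± 0.24, adjusted p = 0.046), a call lost when any 1 of 12 libraries was left out (adjusted p up to 0.0935). Rfx3, a regulator of cilia genes, was at 4.05 to 5.82 CPM in Fgf23cKO and 6.22 to 11.1 CPM elsewhere (log2 0.87 ± 0.21, adjusted p = 0.0213), and was not called without Fgf23cKO library 4 (adjusted p = 0.0508). Prkag2, the other called AMPK gene, was at 26.1 to 26.3 CPM in Fgf23cKO and 29.7 to 37.2 CPM elsewhere (log2 0.38 ± 0.10, adjusted p = 0.0299), a call lost when any 1 of 5 libraries was left out (adjusted p up to 0.0647).

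Dmp1KO was the departing genotype in 106 called genes, those whose change on Dmp1 loss was not carried into the double-mutant mean. For the genes of this class named below, the double mutant against Dmp1KO was itself not called. Its edgeR adjusted p ran from 0.109 for Skiv2l2 to 0.247 for Pgam1, so a return on Fgf23 deletion in Dmp1-null cells was not shown gene by gene. Without double-mutant libraries 1 and 2, 6 of the 43 Dmp1KO-higher and 10 of the 63 Dmp1KO-lower genes were still called in the class, and without libraries 3 and 4 these were 34 and 58. Skiv2l2 (chromosome 13, 112867780 to 112927380), an RNA helicase of the nuclear exosome, was at 55.3, 56.3, 62.5 and 60.5 CPM in Dmp1KO, 35.9 to 37.97 CPM in WT, 42.4 to 50.6 CPM in Fgf23cKO and 40.4, 40.03, 45.3 and 48.7 CPM in the double mutant. All Dmp1KO libraries lay above the other 12 (log2 -0.76 ± 0.11, adjusted p = 0.00185), as the naming rule required. This held for 20 of the 43 called Dmp1KO-higher genes and 7.14% of all tested ones. Hoxb9, a homeobox gene of body patterning, was at 8.25 to 11.7 CPM in Dmp1KO and 2.71 to 6.13 CPM elsewhere (log2 -1.25 ± 0.24, adjusted p = 0.00835). Fgfr1, the receptor that FGF23 uses with Klotho, was at 751.1 to 769 CPM in Dmp1KO, 545.8 to 614.7 CPM in WT, 574.6 to 645.5 CPM in Fgf23cKO and 577.2, 504.6, 657.9 and 651.5 CPM in the double mutant (log2 -0.46 ± 0.12, adjusted p = 0.0338). It was the 1 called gene of 14 FGF receptors, co-receptors and ligands (7.62% of all genes were called), and its call was lost when any 1 of 10 libraries was left out (adjusted p up to 0.0773). Tsfm, a mitochondrial elongation factor, was at 9.73 to 11.7 CPM in Dmp1KO and 6.71 to 9.35 CPM elsewhere (log2 -0.54 ± 0.16, adjusted p = 0.0479), a call lost when any 1 of 13 libraries was left out (adjusted p up to 0.0997).

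Of 21 glycolysis and hypoxia genes, 8 had Dmp1KO as the highest group (6.65% of all genes tested did) and 3 were called, all lower (4.72% of all genes). Pgam1, a glycolytic mutase, was at 285.6 to 353.8 CPM in Dmp1KO, 170.1 to 195.6 CPM in WT, 212 to 229.6 CPM in Fgf23cKO and 181.4, 200.7, 266.9 and 282.2 CPM in the double mutant (log2 -0.74 ± 0.17, adjusted p = 0.0187). Eno1, which encodes enolase, was at 300.9 to 523.9 CPM in Dmp1KO and 195.9, 233.1, 297.5 and 324.5 CPM in the double mutant (log2 -0.82 ± 0.23, adjusted p = 0.0421), a call lost when any 1 of 12 libraries was left out (adjusted p up to 0.0858). In both genes double-mutant libraries 3 and 4 stood above libraries 1 and 2, and Eno1 overlapped Dmp1KO. The interaction of Pgam1 was -0.51 (adjusted p = 0.0244) without libraries 1 and 2, and -1.03 (adjusted p = 7.7e-05) without libraries 3 and 4. The list had between 1 and 7 calls without any 1 library, 1 without double-mutant libraries 1 and 2, and 14 without libraries 3 and 4. Those 2 pair settings called 1048 and 4506 genes over all genes.

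Genes lower in Dmp1KO had a median interaction of 1.87 on the log2 scale over 63 genes, against 0.76 over the 187 genes with WT higher and 0.69 over the 57 with Fgf23cKO lower. Their median level was also lower, at 6.72 CPM against 21.9 and 12.4 CPM. The part of expression level in this difference was not tested. Hpgd (chromosome 8, 56294552 to 56321046), which inactivates prostaglandins, was at 106.8, 80.3, 107.3 and 76.9 CPM in Dmp1KO, 264.9 to 384.9 CPM in WT, 258.1 to 294.8 CPM in Fgf23cKO and 217.5, 308.6, 165.8 and 113.3 CPM in the double mutant. All Dmp1KO libraries lay below the other 12, as the naming rule required and as in 27 of the 63 genes (4.84% of all tested ones). Double-mutant libraries 3 and 4 fell between Dmp1KO and the rest (log2 1.32 ± 0.32, adjusted p = 0.0261, a call lost when any 1 of 6 libraries was left out, with an adjusted p up to 0.0564). Without double-mutant libraries 1 and 2 its interaction was 0.79 (adjusted p = 0.0542), and without libraries 3 and 4 it was 1.71 (adjusted p = 0.000141). Abca9, a lipid transporter, was at 13.1 to 24.9 CPM in Dmp1KO, 47.5 to 91.8 CPM in WT, 44.7 to 58.4 CPM in Fgf23cKO and 84.9, 66.5, 25.3 and 32.7 CPM in the double mutant (log2 2.07 ± 0.48, adjusted p = 0.0202), with 1.21 (adjusted p = 0.0683) when libraries 1 and 2 were left out and 2.6 (adjusted p = 0.000327) when libraries 3 and 4 were. C1s1, a complement protease, was at 2.09 to 2.52 CPM in Dmp1KO and 14.2, 7.75, 3.23 and 2.56 CPM in the double mutant (log2 2.52 ± 0.60, adjusted p = 0.0221), and was not called without Fgf23cKO library 4 (adjusted p = 0.0521). Its interaction was 1.26 (adjusted p = 0.04) without double-mutant libraries 1 and 2 and 3.18 (adjusted p = 7.17e-05) without libraries 3 and 4. Fndc1 was at 1.77 to 3.13 CPM in Dmp1KO and 33.8, 12.6, 3.41 and 4.12 CPM in the double mutant (log2 3.298 ± 0.89, adjusted p = 0.0386), a call lost when any 1 of 12 libraries was left out (adjusted p up to 0.0811), with 1.45 (adjusted p = 0.183) without double-mutant libraries 1 and 2 and 4.08 (adjusted p = 0.00127) without libraries 3 and 4. In all 4 genes double-mutant libraries 3 and 4 lay below libraries 1 and 2.

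Of 16 cholesterol synthesis genes, 11 had Dmp1KO as the lowest group (10.4% of all genes tested did), 15 had a positive interaction and 2 were called, both higher (2.9% of all genes). Hmgcs1, an early enzyme of the pathway, was at 75.3 to 106.7 CPM in Dmp1KO, 135.4 to 167.6 CPM in WT, 79.6 to 192.7 CPM in Fgf23cKO and 158.8, 120.5, 160.1 and 130.2 CPM in the double mutant (log2 1.06 ± 0.29, adjusted p = 0.0402). Here the double-mutant libraries did not split, and all 4 lay above all 4 Dmp1KO libraries. Msmo1, a later enzyme, was at 28.3 to 35.4 CPM in Dmp1KO and 40.9 to 54.6 CPM in the double mutant (log2 0.73 ± 0.20, adjusted p = 0.0416). The calls of Hmgcs1 and Msmo1 were lost when any 1 of 9 or 10 libraries was left out, with an adjusted p up to 0.0822 and 0.0889, but the direction was kept. Lrp5, a Wnt co-receptor, and Tfrc, the transferrin receptor, were chosen after their values were seen. Lrp5 was at 40.9 to 51.2 CPM in Dmp1KO and 48.4 to 67 CPM in the double mutant, and Tfrc at 99.1 to 124 CPM and 165 to 177 CPM.

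The place of each library between the departing mean (1) and the mean of the other 3 genotypes (0), taken as a median over the genes of a class, shows how the pairs enter. The same libraries set the calls and the classes, so a departing genotype near 1 and the others nearer 0 follow from the choice. For the 689 genes in which WT departed, double-mutant libraries 1 and 2 stood at 0.259 and 0.295 and libraries 3 and 4 at -0.11 and -0.0271, with WT at 0.943 to 1.07. For the 106 Dmp1KO genes they stood at -0.154 and -0.152 against 0.384 and 0.478, so that libraries 3 and 4 lay nearly midway to Dmp1KO. For the 101 Fgf23cKO genes all 4 lay between -0.109 and 0.254. The plot of library places shows the 3 classes side by side. Besides the genes for which it is given, the calls of Col10a1, Dnajb11, Eno1, Fgfr1, Gdf15, Hmgcs1, Hspa5, Kars, Msmo1, Prkab2, Rab6b, Sesn1, Tbx18 and Tsfm were lost without double-mutant libraries 1 and 2 (adjusted p from 0.0668 to 0.153), and kept without libraries 3 and 4.

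**Figure D4:**
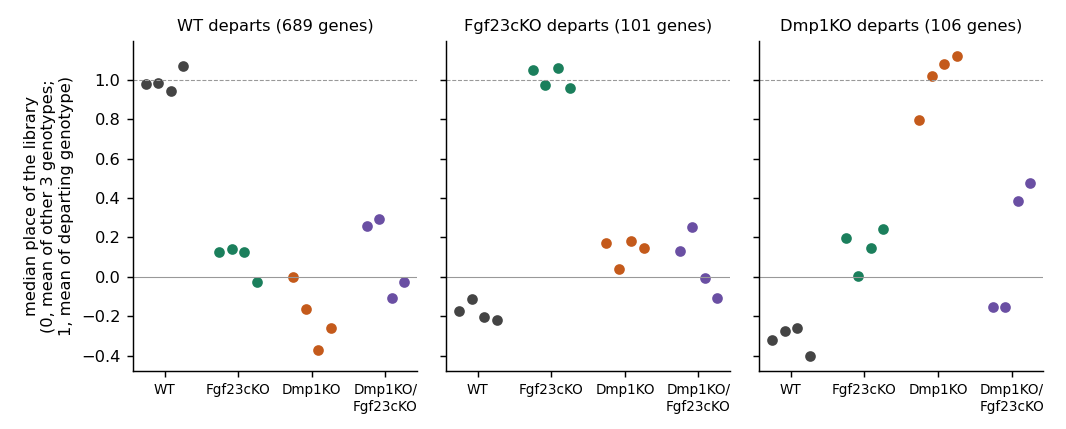
Median place of each library over the called genes of 3 classes, where 1 is the mean of the departing genotype and 0 the mean of the other 3. Dots are libraries 1 to 4 from left to right in each genotype. The same libraries chose the genes and set the classes. In the Dmp1KO class double-mutant libraries 3 and 4 stand at 0.384 and 0.478, while in the other 2 classes all double-mutant libraries stay at 0.295 or below.

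The double mutant itself departed in 4 called genes. Tbx18, a T-box transcription factor, was at 23.5, 20.3, 27.5 and 28.98 CPM in the double mutant and 29.6 to 40.2 CPM in the other 12 libraries (log2 -0.53 ± 0.14, adjusted p = 0.0401), a call lost when any 1 of 12 libraries was left out (adjusted p up to 0.0871). Grk3, a receptor kinase, was at 15.5, 12.6, 16.7 and 19.9 CPM in the double mutant and 4.89 to 13.1 CPM elsewhere (log2 1.45 ± 0.39, adjusted p = 0.0371), with 1 of its libraries inside the range of the others. Syce1, a meiotic protein, was at 0 in the 4 double-mutant libraries and at most 0.428 CPM in any other, and 1700012B09Rik was at 0 to 0.143 CPM and at most 1.15 CPM, both too low for a fold to be read. No count of this class held across settings, since it was 0 without WT library 1 or 2, Fgf23cKO library 4 or Dmp1KO library 4, 11 without Dmp1KO library 1, 60 without double-mutant libraries 1 and 2, and 112 without libraries 3 and 4.

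None of 22 osteoblast genes had an interaction called by edgeR (3 at an unadjusted p under 0.05), 1 was called by DESeq2, 0 by limma on the deposited values and 2 by limma voom with a weight per genotype. In Dmp1KO against WT, 13 of the 22 were called higher and 1 lower (18% and 15.8% of all genes were). The interaction was negative for 18 of 22, with a median of -0.47. Col1a1, the main chain of bone collagen, was at 24880 to 43690 CPM in WT, 42780 to 52800 CPM in Fgf23cKO, 74500 to 84680 CPM in Dmp1KO and 31940, 25570, 125600 and 90710 CPM in the double mutant. Double-mutant libraries 1 and 2 thus lay within WT and libraries 3 and 4 above every other library (log2 -0.74 ± 0.54, adjusted p = 0.413). Its interaction was -0.09 (adjusted p = 0.88) without libraries 1 and 2, and it was called without libraries 3 and 4 (adjusted p = 0.00014). Bglap, which encodes osteocalcin, was at 88.2 to 222.8 CPM in WT, 327.5 to 442.7 CPM in Fgf23cKO, 596.3 to 908.2 CPM in Dmp1KO and 189.3, 120.3, 1283 and 671 CPM in the double mutant (adjusted p = 0.139). It was at -1.13 (adjusted p = 0.15) without libraries 1 and 2 and was called at -3.78 (adjusted p = 0.00012) without libraries 3 and 4. Its counts may be shared with the near-identical Bglap2. Without libraries 3 and 4, 15 of the 22 genes were called lower with a median of -1.15, and without libraries 1 and 2, 1 was called lower and 1 higher with a median of -0.03. Genes called lower over all genes numbered 2314 without libraries 3 and 4 and 674 without libraries 1 and 2.

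The transcription factors and mineralization genes split in the same way. Runx2, the master regulator of osteoblasts, was at 135.4, 113.8, 256.4 and 224 CPM in the double mutant against 140.2 to 198.2 CPM in WT against 218.5 to 239.6 CPM in Dmp1KO (adjusted p = 0.463). Sp7, which acts after it, was at 167.9, 132.9, 403.9 and 335.5 CPM in the double mutant and 337 to 367.8 CPM in Dmp1KO (adjusted p = 0.643), and Alpl, the alkaline phosphatase, was at 958.5, 541.1, 1826 and 1634 CPM and 1119 to 1553 CPM (adjusted p = 0.44). Without libraries 3 and 4 all 3 were called lower, Runx2 at -0.89 (adjusted p = 0.000681), Sp7 at -1.11 (adjusted p = 0.00135) and Alpl at -1.27 (adjusted p = 0.0121), and without libraries 1 and 2 none was (adjusted p = 0.883, 0.624 and 0.911). Phex, the peptidase lost in X-linked hypophosphatemia, was at 57.6, 45.4, 526.1 and 292.3 CPM in the double mutant and 189.6 to 205.7 CPM in Dmp1KO (adjusted p = 0.918). Sost, the osteocyte Wnt inhibitor, was at 0.0956, 0.0249, 78.8 and 12.2 CPM in the double mutant and 0.41 to 4.93 CPM in the other 12 libraries (adjusted p = 0.232). In Ank and Enpp1, which supply pyrophosphate, the order of the pairs was the opposite, with 487, 1120, 230.2 and 323.8 CPM for Ank and 93.2, 215.3, 50 and 69.9 CPM for Enpp1. Ibsp and Mepe, matrix proteins of the same family as Dmp1, were not called (adjusted p = 0.234 and 0.515), nor was Spp1, which encodes osteopontin (log2 -1.06 ± 0.39, adjusted p = 0.108). Spp1 was called by DESeq2 (adjusted p = 0.0419) and without double-mutant libraries 1 and 2 (log2 -1.59, adjusted p = 0.0121), but not without libraries 3 and 4 (log2 -0.68, adjusted p = 0.186). Without libraries 3 and 4, Ibsp (log2 -1.18, adjusted p = 0.0081) and Mepe (log2 -1.62, adjusted p = 0.0445) were called. Dmp1 itself (log2 -1.58 ± 0.50, adjusted p = 0.0692) and Fgf23 (log2 -1.20 ± 0.78, adjusted p = 0.358) were not called either, and both were altered by design. Dmp1 was called by DESeq2 (adjusted p = 0.0116) and without libraries 3 and 4 (log2 -2.27, adjusted p = 0.00694), among 6 of 28 settings. On the osteocyte list of 15 and the phosphate and mineralization list of 14 genes, none was called by edgeR (2 and 2 at an unadjusted p under 0.05), and DESeq2 called 1 and 0.

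**Figure D5:**
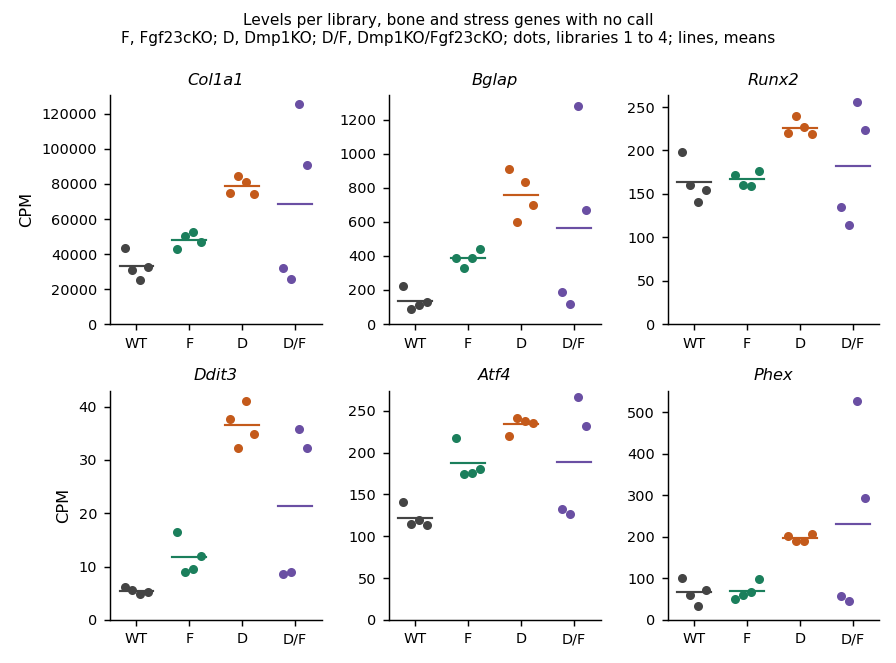
CPM per library (dots) and group mean (lines) for 6 genes without a called interaction, with each axis from 0. In each, double-mutant libraries 1 and 2 lie near WT or Fgf23cKO and libraries 3 and 4 at or above Dmp1KO, as for Col1a1 at 31940 and 25570 against 125600 and 90710 CPM.

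Genes of the integrated stress response leaned lower and mostly missed the threshold. Of 26 CHOP and ATF4 effectors, 25 had a negative interaction with a median of -0.87. In Dmp1KO against WT 22 were called higher (18% of all genes were). Ddit3, which encodes CHOP, was at 4.90 to 6.13 CPM in WT, 8.96 to 16.6 CPM in Fgf23cKO, 32.3 to 41.1 CPM in Dmp1KO and 8.51, 9.06, 35.7 and 32.3 CPM in the double mutant. The 2 pairs sat at the levels of Fgf23cKO and Dmp1KO, and the interaction was -1.88 ± 0.55 (SE, adjusted p = 0.0507). DESeq2 called it (adjusted p = 0.00534), and it was also called without libraries 1 and 2 (log2 -1.22, adjusted p = 0.0137) and without libraries 3 and 4 (log2 -3.17, adjusted p = 7.08e-06). Gdf15, a stress-induced cytokine, was the 1 called member (7.62% of all genes were called), at 17.1 to 19.0 CPM in WT against 19.4 to 36.9 CPM elsewhere (log2 -0.95 ± 0.26, adjusted p = 0.0403, lost when any 1 of 11 libraries was left out, with an adjusted p up to 0.0865). The list had 11 genes at an unadjusted p under 0.05, 6 calls by DESeq2, 2 calls without double-mutant libraries 1 and 2, and 22 without libraries 3 and 4. Those 2 pair settings called 1048 and 4506 genes over all genes.

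Aminoacyl tRNA synthetases, which charge tRNAs and are partly ATF4 targets, had 6 of 20 called, all lower (4.72% of all genes were), with all 20 negative and a median of -0.58. Rars, the arginyl enzyme, was at 43.9 to 50.7 CPM in WT, 59.6 to 71.0 CPM in Fgf23cKO, 75.1 to 92.4 CPM in Dmp1KO and 67.1 to 85 CPM in the double mutant (log2 -0.65 ± 0.13, adjusted p = 0.00976). Kars, the lysyl enzyme, was at 80.1 to 87.0 CPM in WT against 89.2 to 107.1 CPM in the double mutant (log2 -0.52 ± 0.13, adjusted p = 0.027, lost when any 1 of 6 libraries was left out, with an adjusted p up to 0.0641). Mean Kars was 101 CPM in Fgf23cKO and 118.8 CPM in Dmp1KO. The chaperones of the endoplasmic reticulum had 2 of 21 called lower (4.72% of all genes were), both lost when any 1 of 12 libraries was left out (adjusted p up to 0.0948). Hspa5, the chaperone BiP, was at 433.8 to 465.8 CPM in WT, 591.3 to 854.5 CPM in Dmp1KO and 595.1 to 675.3 CPM in the double mutant (log2 -0.55 ± 0.16, adjusted p = 0.0448), and its partner Dnajb11 at 56.3 to 63.3 CPM in WT against 88.2 to 102.4 CPM in the double mutant (log2 -0.53 ± 0.15, adjusted p = 0.0443). Trp53, the tumour suppressor p53, was at 51.9 to 55.3 CPM in WT against 56.6 to 60.8 CPM in the double mutant (log2 -0.57 ± 0.10, adjusted p = 0.00557). Its double-mutant mean of 58.6 CPM lay below the means of 69.7 CPM in Fgf23cKO and 67.0 CPM in Dmp1KO, and no single genotype departed. On the immediate early list 2 of 18 were called lower (4.72% of all genes were), Junb and Ier2, the latter at 14.1 to 18.3 CPM in WT against 19.1 to 29.9 CPM elsewhere (log2 -0.90 ± 0.20, adjusted p = 0.0154). In the FGFR and ERK feedback list the called genes were Junb and Myc of 21, both lower (4.72% of all genes were). Dusp6, the ERK phosphatase often read as a sign of FGF signalling, was at 203.8, 220.6, 80.4 and 100.2 CPM in the double mutant and 137.2 to 161.8 CPM in WT, with an interaction of 0.06 ± 0.35 (adjusted p = 0.934). It was called lower without double-mutant libraries 1 and 2 (log2 -0.69, adjusted p = 0.025) and higher without libraries 3 and 4 (log2 0.55, adjusted p = 0.0146).

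Matrix and cell type markers varied with the same pairs. None of 27 fibrillar matrix genes was called by edgeR (11 at an unadjusted p under 0.05, and 3 called by DESeq2), with a median of 0.88, and without double-mutant libraries 3 and 4, 12 were called higher and 2 lower. That setting called 2192 genes higher and 2314 lower over all genes. Markers of macrophages were abundant, at a summed 6840 to 13700 CPM over 16 genes in the 16 libraries. They gave no call (2 at an unadjusted p under 0.05, and 1 called by DESeq2), and 10 calls without libraries 3 and 4, where 4506 genes were called over all genes. The 11 osteoclast markers gave no call (1 at an unadjusted p under 0.05) with a median of 2.04, summed at 458 to 601 CPM in Dmp1KO, 466 to 889 CPM in WT, 572 to 847 CPM in Fgf23cKO and 646 to 1160 CPM in the double mutant. Of stromal progenitor markers 2 of 15 were called higher (2.9% of all genes were), Kitl and Ebf3, a stromal transcription factor at 12.4 to 16.4 CPM in WT against 3.98 to 6.55 CPM in Fgf23cKO (log2 1.61 ± 0.34, adjusted p = 0.0127). Mean Ebf3 was 8.29 CPM in Dmp1KO and 9.19 CPM in the double mutant. Of chondrocyte markers 1 of 13 was called (7.62% of all genes were), Col10a1, a collagen of hypertrophic cartilage at 6.02 to 10.5 CPM in WT, 3.14 to 5.21 CPM in Fgf23cKO, 2.04 to 4.69 CPM in Dmp1KO and 3.61 to 11.03 CPM in the double mutant (log2 1.95 ± 0.45, adjusted p = 0.0189). Osteoblast genes stood at a summed 62800 to 230000 CPM in the double mutant, 58800 to 94100 CPM in WT, 93600 to 114000 CPM in Fgf23cKO and 146000 to 159000 CPM in Dmp1KO. Endothelial, erythroid, neutrophil and skeletal muscle markers summed to at most 40.2 CPM in any library, and lymphocyte markers to at most 51 CPM in Dmp1KO and 47.2 CPM in the double mutant. In bulk RNA, fewer cells of a type and less RNA per cell cannot be told apart, and the part of cell composition in these interactions was not tested.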

How the data were processed

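RNA of 16 cultures was made into TruSeq total RNA libraries, read as 50 bp pairs on a NovaSeq and mapped to mm10 in StrandNGS by the study. The sources used here give no version, annotation or strand setting for it. Per gene, the authors deposited expected counts, 33.4% of them with fractions, and log2 values scaled by DESeq and centred on each gene's median. Tables of the authors' own fold changes and p-values against WT were also deposited and were not used.

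Expected counts were rounded and tested with edgeR 4.0.16 (TMM, robust quasi-likelihood test, R 4.3.3). filterByExpr (minimum count 10, total 15) kept 16430 genes. One fit held 4 genotype means, and adjusted p-values are Benjamini-Hochberg values over all genes tested. SEs are on the log2 scale, and CPM are scaled by TMM. Libraries are numbered in the order of listing, which pairs none. The lowest mean chi-square between replicates was 26.6 per gene, so no 2 libraries agreed within sampling noise. Alternatives were DESeq2 1.42.0, limma 3.58.1, RLE scaling, no filter, libraries left out singly or as double-mutant pairs, other class rules, and an offset for length and GC content, added after the data were seen.

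The named genes were a short set of bone genes, up to 4 called genes per departing genotype and direction (largest interaction, mean of at least 5 CPM, departing libraries apart from the other 12; no ribosomal protein genes) and up to 2 called genes of every list by adjusted p. Others named were chosen after their values were seen. Members and lists were chosen with earlier results of these data known. On simulated counts of 16171 genes the interaction test recovered 90% of 40 genes at a log2 interaction of -2, 67.5% at -1 and 10% at -0.5. Gene positions and start windows are from RefSeq GRCm38.p6, and 26 symbols stored as dates were repaired by Entrez ID.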

Additional observations from a re-analysis of the deposited data

Results flagged for a closer look

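The interaction, a test of whether the effect of Fgf23 deletion differed between Dmp1-null and Dmp1-intact cells, was past the threshold for 477 genes higher and 775 lower in edgeR, and for 51 of the 67 named genes. Outside the short fixed set, a gene was named only if it was called, so the last count follows from the choice. Of all genes tested, 7.62% were called.

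In 12 of 268 sets of 4 libraries (the named genes in each genotype), 1 library stood apart from the other 3 by a gap past the 95% limit of Dixon’s test for 4 values, which chance alone passes in about 1 set of 20. In the double mutant these were Sost with library 3 highest (0.845 of the range), Hmox1 with library 2 highest (0.895) and Hspa5 with library 1 lowest (0.934). In Dmp1KO they were Alpl with library 1 lowest (0.843) and Hmgcs1 with library 2 highest (0.921). In Fgf23cKO they were Ibsp with library 1 lowest (0.878), Prkab2 with library 1 lowest (0.927) and Prkag2 with library 3 highest (0.917). In WT they were Fzd2 with library 2 highest (0.841), Hmgcs1 with library 2 lowest (0.944), Hspa5 with library 3 highest (0.844) and Id2 with library 3 lowest (0.863).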

How the results depend on the processing

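The direction of all 1252 called genes held under every setting, except 1 of the 1231 measured with the length and GC offset. All settings used the libraries that chose these genes, so a kept direction was likely from the start. Of the 51 called named genes, 26 stayed called without any 1 library and 22 under all settings. DESeq2 called 2095 genes, all 1252 included, RLE scaling 1240, limma on the deposited log2 values 895, limma voom with a weight per genotype 1156, and the fit without a filter 875. With 4 libraries per genotype, interactions of 0.5 on the log2 scale were mostly uncalled in the simulation, so a missing call does not show additivity. Whether the spread of the double-mutant libraries is technical was not tested. No paired analysis was possible because the labels give no replicate numbers.

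Without any 1 library, the number called higher ranged from 200 (WT 4) to 945 (double mutant 3) and called lower from 391 to 1046 for the same libraries. WT departed in 366 (Fgf23cKO 4) to 737 genes (double mutant 3), Fgf23cKO in 40 (WT 4) to 125 (double mutant 2), Dmp1KO in 30 (Fgf23cKO 4) to 425 (double mutant 3), the double mutant in 0 (WT 1) to 11 (Dmp1KO 1), and no single genotype in 147 (WT 4) to 718 (double mutant 3).

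With DESeq2, 958 genes were called higher, Fgf23cKO departed in 184, Dmp1KO in 251, the double mutant in 11 and none in 670. Without a filter, Fgf23cKO departed in 62, Dmp1KO in 68, the double mutant in 2 and none in 222. With limma on the deposited log2 values, Dmp1KO departed in 62. Without double-mutant libraries 1 and 2, WT departed in 410, Fgf23cKO in 242, Dmp1KO in 20 and the double mutant in 60. Without libraries 1 and 3, 498 were called lower, WT departed in 430 and Fgf23cKO in 51. Without libraries 1 and 4, 165 were called higher and 288 lower, WT departed in 265, Fgf23cKO in 26, Dmp1KO in 46 and none in 113. Without libraries 2 and 3, 516 were called lower and WT departed in 438. Without libraries 2 and 4, 211 were called higher and 321 lower, WT departed in 279, Fgf23cKO in 49, Dmp1KO in 54 and none in 145. Without libraries 3 and 4, 2192 were called higher and 2314 lower, Dmp1KO departed in 1998, the double mutant in 112 and none in 1621. With a gap of 0.5 times the range, Dmp1KO departed in 172 and none in 65. With a gap of 2 times the range, WT departed in 279, Fgf23cKO in 51, Dmp1KO in 33, the double mutant in 1 and none in 888.

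For Dusp6, Phex and Sost, which were not called, the sign turned and passed the threshold. Dusp6 was at -0.69 (edgeR adjusted p = 0.025) without double-mutant libraries 1 and 2 and at 0.55 (adjusted p = 0.0146) without libraries 3 and 4. Without libraries 3 and 4 Phex was at -1.98 (adjusted p = 0.00698) and Sost at -4.56 (adjusted p = 0.0251). Without libraries 1 and 2 the signs of Ank (-0.96), Enpp1 (-0.75), Runx2 (0.05) and Sp7 (0.19) also turned, with no call. The cause of these changes was not tested.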

Other observations

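Other gene groups had few called interactions. All 10 adipocyte markers tested had a positive interaction, with a median of 1.10 on the log2 scale, and none was called by edgeR (4 at an unadjusted p under 0.05, and 1 called by DESeq2). Of 10 smooth muscle and contractile markers, 9 were positive with a median of 0.73 and none was called by edgeR (1 at an unadjusted p under 0.05, and 1 called by DESeq2). Of 18 cell cycle genes, 17 were negative with a median of -0.51 and none was called by edgeR (1 at an unadjusted p under 0.05, and 0 called by DESeq2). None of 16 interferon-stimulated genes was called by edgeR or by DESeq2, and 0 were at an unadjusted p under 0.05.

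Single genes outside the lists and the rule for named genes were chosen after their values were seen. Epas1, the oxygen-regulated transcription factor HIF-2 alpha, was at 99.2 to 150 CPM in WT, 73.5 to 105 CPM in Fgf23cKO, 45.3 to 68.4 CPM in Dmp1KO and 78.4 to 99.5 CPM in the double mutant (log2 1.04 ± 0.22, edgeR adjusted p = 0.0121). Cdkn1b, the cell cycle inhibitor p27, was at 21 to 25.3 CPM in Fgf23cKO and 27 to 36.9 CPM in the other 12 libraries (log2 0.48 ± 0.13, edgeR adjusted p = 0.0388). Mmp13, a collagenase of bone, had no call (log2 -0.40 ± 0.57, edgeR adjusted p = 0.70), at 1240 to 1930 CPM in WT, 1370 to 2890 CPM in Fgf23cKO, 261 to 855 CPM in Dmp1KO and 360 to 1140 CPM in the double mutant.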
